A study of Mus musculus with 8 samples.

Results

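The genes described here are 36 genes of fatty acid oxidation and activation, of 54146 genes measured in cultured mouse astrocytes. They were taken by the symbol in each deposited gene identifier, and all 36 were found once in every library. They comprise 5 genes of the carnitine shuttle, 5 acyl-CoA dehydrogenases, 3 genes of the electron transfer flavoprotein system, 6 genes of the later steps of the mitochondrial cycle, 3 auxiliary enzymes, 5 genes of peroxisomal oxidation, 5 long-chain acyl-CoA synthetases, 2 acyl-CoA thioesterases and 2 nuclear receptors. The rule uses no measured value.

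Primary astrocytes were grown from the cortices of neonatal C57BL/6 mice as mixed glia. The cells were infected with a lentivirus that carried a short hairpin RNA (shRNA) against Gstm1, a glutathione S-transferase, or a non-silencing control, and every group passed through puromycin selection, shaking to remove oligodendrocyte lineage cells and depletion of CD11b-positive microglia. The 4 groups were the control knockdown (control KD) and the Gstm1 knockdown (GSTM1 KD) in the basal state, and both knockdowns after 50 ng/ml of the cytokine TNF-α for 6 h, with 2 biological replicates each and 8 libraries in all. The knockdown cells are a selected pool and not a clone, and the labels do not say whether libraries with the same replicate number share a culture.

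Fatty acids are activated to acyl-CoA by acyl-CoA synthetases, and long chains then cross into mitochondria as carnitine esters. There a repeated cycle of dehydrogenation, hydration, a further dehydrogenation and thiolysis shortens the chain and yields acetyl-CoA, with electrons passed through the electron transfer flavoprotein to the respiratory chain. Peroxisomes run a related cycle on very long and branched chains, and the receptors PPARα and PPARδ bind fatty acids and switch on many of these genes. In the brain, astrocytes are the cells best known for oxidizing fatty acids, while neurons do little of it.

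The expected counts summed to between 17349682 and 34434615 per library, with 19371 to 21557 genes having a count. Basal counts of Gstm1 were 8153 and 9644 under control KD against 676 and 626 under GSTM1 KD. Counts with TNF-α were 4851 and 6492 against 527 and 405, so that every library matched the knockdown in its label. These counts do not check the TNF-α part of the labels. The log2 fold change of Gstm1 was -3.33 (SE 0.239) in the basal state and -3.68 (SE 0.288) after TNF-α, with adjusted p-values of 0.0132 and 0.00981. Of 9 astrocyte markers, all had counts in every library, and their summed TPM (RSEM's transcript abundance, corrected for length) was 1580 and 3790 under control KD against 3650 and 5720 under GSTM1 KD in the basal state, and 1580 and 3640 against 3500 and 5420 after TNF-α. Replicate 2 was thus above replicate 1 in each group. Of these markers 5 (Gfap, Aldh1l1, Slc1a2, Gja1 and Aldoc) were higher in both GSTM1 KD libraries than in both control KD libraries in each state, and 2 (Sox9 and S100b) were lower, of which only S100b passed the test (adjusted p = 0.0269 and 0.0387). Gfap was the largest part of the astrocyte sum. Its mean TPM was 1460 under control KD against 3260 under GSTM1 KD in the basal state, and 1330 against 2990 after TNF-α. The remaining 2 markers overlapped, and their means were nearly level. These were Aqp4 (385 against 380, and 499 against 521) and Slc1a3 (347 against 342, and 352 against 346). Summed TPM of 5 fibroblast and mural markers, mostly Acta2, was 3060 to 3990 under control KD against 1580 to 2170 under GSTM1 KD, and Acta2 was lower in both states (-1.02 and -0.93, adjusted p = 0.0270 and 0.0208). Pdgfrb of the same list was higher in both GSTM1 KD libraries of each state and passed after TNF-α (0.46 and 0.81, adjusted p = 0.184 and 0.0337). The 6 microglial markers summed to 0.84 to 2.09 TPM. The 3 endothelial markers summed to 1.3 to 2.98 TPM under control KD against 0.75 to 1.23 under GSTM1 KD. Cldn5 of this list was at 0 in all libraries. Cdh5 was at -1.65 and -1.41 and did not pass in edgeR (adjusted p = 0.0954 and 0.121). DESeq2 called Cdh5 lower in the basal state (adjusted p = 0.0188) and not after TNF-α (0.0744). The 8 oligodendrocyte lineage markers, chiefly Olig1 and Olig2, summed to 533 and 596 TPM under control KD against 441 and 423 under GSTM1 KD in the basal state, and 448 and 479 against 352 and 340 after TNF-α. Olig2 was lower in both states (-0.85 and -1.14, adjusted p = 0.0251 and 0.0101) and Olig1 passed after TNF-α (-0.44, adjusted p = 0.0497). The 5 ependymal and choroid plexus markers summed to 64.8 to 117 TPM and the 4 neuronal markers, chiefly Tubb3, to 69.9 to 95.

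The most abundant of the mRNAs encoded proteins of the mitochondrial core of the pathway. Levels of different genes are set side by side in TPM. All 36 genes had counts in all 8 libraries. Mean TPM over the 8 libraries was 100 or more for 9 genes, between 10 and 100 for 23 and under 10 for 4. The electron transfer flavoprotein carries electrons from every acyl-CoA dehydrogenase, and its β subunit gene Etfb was the highest of all.

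Etfb ranged from 208 to 242 TPM over the libraries, with 208 and 212 under control KD against 242 and 238 under GSTM1 KD in the basal state, and 209 and 215 against 225 and 224 after TNF-α. Etfa, the α subunit, had 141 and 169 TPM under control KD against 201 and 222 under GSTM1 KD in the basal state, and 143 and 164 against 208 and 213 after TNF-α. For both subunits the 4 GSTM1 KD libraries lay above the 4 control KD libraries in TPM. In counts scaled to library size (CPM) this held for Etfa, and for Etfb only within each state. Etfb had 68.9 CPM in replicate 2 of GSTM1 KD after TNF-α against 69.1 in replicate 1 of basal control KD. Hadha and Hadhb encode the α and β subunits of the mitochondrial trifunctional protein, which performs the last 3 reactions on long chains. Hadha had 133 and 158 TPM under control KD against 173 and 204 under GSTM1 KD in the basal state, and 128 and 152 against 169 and 183 after TNF-α. Hadhb had 131 and 165 TPM under control KD against 162 and 173 under GSTM1 KD in the basal state, and 118 and 153 against 152 and 162 after TNF-α. The 2 knockdowns were apart for Hadha and overlapped for Hadhb. Hadh, the short-chain hydroxyacyl-CoA dehydrogenase, had 119 and 139 TPM under control KD against 131 and 131 under GSTM1 KD in the basal state, and 112 and 133 against 125 and 126 after TNF-α. The GSTM1 KD libraries lay inside the range of the control KD libraries for this gene.

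Acaa1a, the peroxisomal thiolase, had a mean of 123 TPM, Acadvl, the very long-chain acyl-CoA dehydrogenase, 119, Acadl, the long-chain enzyme, 112, and Hsd17b4, the peroxisomal multifunctional protein 2, 109. At the low end stood Acsl1 with 8.55 TPM and the receptor gene Ppard with 9.12. Ehhadh, the other peroxisomal multifunctional enzyme, had 1.44 TPM and the receptor gene Ppara 1.26. Their counts ran from 28 to 98 and from 18 to 75, against 195 or more for every other gene in each library, so that values of these 2 genes are the least precise.

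**Figure D1:**
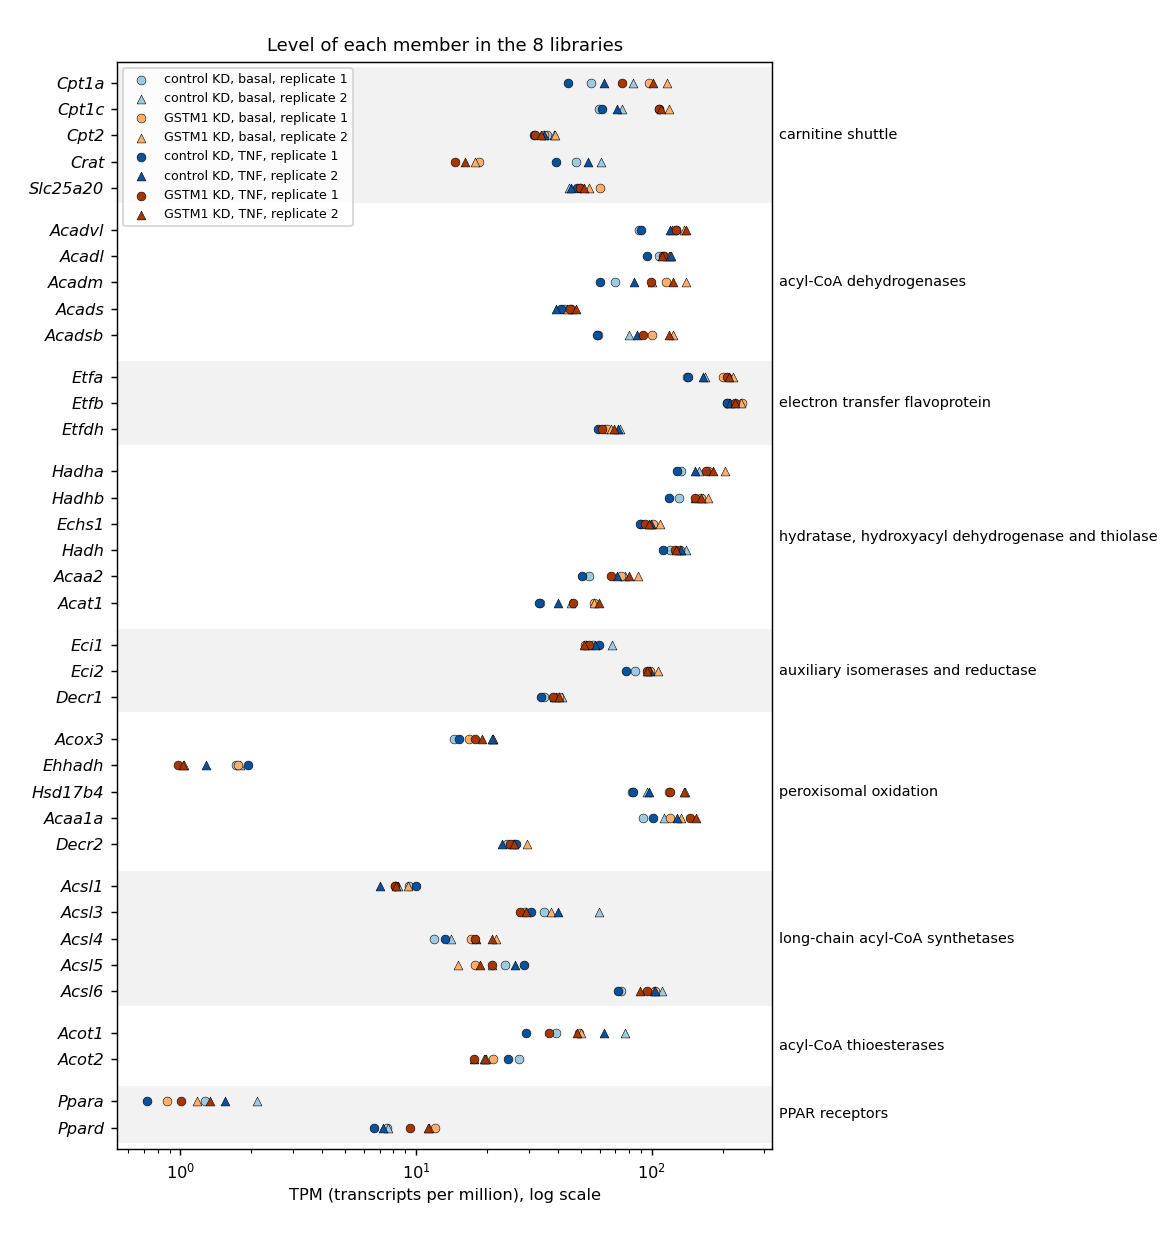
Level of each of the 36 genes in TPM on a log scale (x axis), by role (shaded bands), with 1 point for each of the 8 libraries, colours for the groups, circles for replicate 1 and triangles for replicate 2. Most genes lie between 10 and 242 TPM, Ehhadh and Ppara lie near 1 TPM, and Crat is the gene whose GSTM1 KD libraries (14.6 to 18.5 TPM) stand farthest below the control KD libraries (39.0 to 61.1 TPM).

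The families differed in how evenly their isozymes shared the mRNA, as the bars of family composition show. Acsl6, the acyl-CoA synthetase known as the brain form, was the highest of its family in every library, with 46.5% to 58.8% of the summed TPM of the 5 synthetases. Acsl3 held 16.1% to 27.9%, Acsl5 8.10% to 18.5%, Acsl4 6.59% to 12.7% and Acsl1 3.65% to 6.45%. The share of Acsl5 was 15.4% and 9.87% under control KD against 10.2% and 8.10% under GSTM1 KD in the basal state. After TNF-α it was 18.5% and 13.5% under control KD against 12.4% and 11.3% under GSTM1 KD. Its share was lower in replicate 2 of every group, and the 2 knockdowns overlapped in share in the basal state but not after TNF-α.

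Carnitine palmitoyltransferase 1 sets the rate at which long chains enter mitochondria. Its liver-type gene Cpt1a and its neuronal-type gene Cpt1c gave nearly equal TPM, Cpt1a making up 41.0% to 52.7% of the sum of both. The CPT1C protein is known for its very low enzyme activity and its place in the endoplasmic reticulum. The sum of both was 115 and 158 TPM under control KD against 204 and 234 under GSTM1 KD in the basal state, and 105 and 134 against 182 and 211 after TNF-α, while the share of Cpt1a overlapped between the knockdowns in each state. Among the 5 acyl-CoA dehydrogenases, no gene held more than 29.2% of the summed TPM. The share of Acadm, the medium-chain enzyme, was 19.1% and 21.5% under control KD against 23.0% and 24.8% under GSTM1 KD in the basal state, and 17.4% and 18.6% against 20.9% and 22.8% after TNF-α. The share of Acadl went the other way, with 29.2% and 25.4% under control KD against 22.5% and 21.2% under GSTM1 KD in the basal state, and 27.7% and 26.9% against 23.6% and 20.5% after TNF-α. These shares were not tested.

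**Figure D2:**
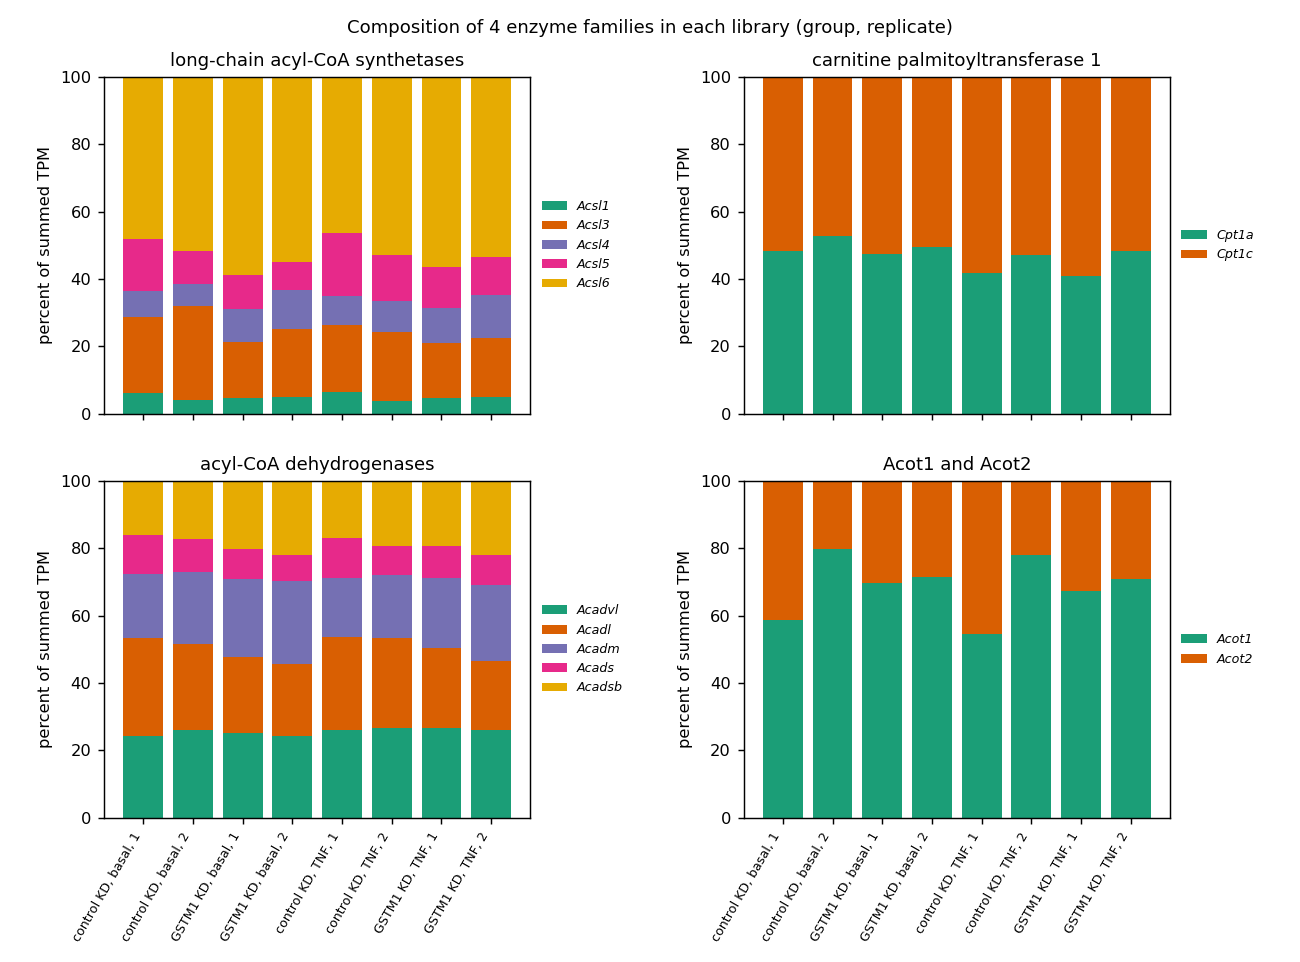
Percent of the summed TPM (y axis) that each gene contributes to its enzyme family in each of the 8 libraries (bars, group and replicate). Acsl6 makes up 46.5% to 58.8% of the synthetases, Cpt1a and Cpt1c are near equal, and Acot1 makes up 58.8% and 79.9% in the 2 control KD libraries in the basal state.

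GSTM1 KD was first set against control KD in the basal state, to see which of these genes differed before stimulation. Of the 36 genes, all tested, 1 was higher (Cpt1c), 2 were lower (Crat and Acsl5) and 33 did not pass an adjusted p of 0.05 in the quasi-likelihood test of edgeR, with p-values adjusted over all genes by Benjamini-Hochberg. That is 8.33% of the members, beside 10.2% of the 14899 genes tested, 4.6% higher and 5.62% lower. The median log2 fold change of the members was 0.08, beside 0.00 over all genes, and became 0.01 without replicate 1 of control KD and 0.13 without replicate 2. After TNF-α the same 3 genes passed in the same directions, again 8.33% of the members, beside 16.2% of 14593 genes, 7.26% higher and 8.92% lower, and the median was 0.06 beside -0.01, and became -0.01 without replicate 1 of control KD and 0.23 without replicate 2. Over the 14379 genes with a test in each state, 8.7% passed in each with the same sign. At an unadjusted p under 0.05 there were 11 members in each state, beside 31.6% and 36.2% of all genes. DESeq2 called 5 in each state, beside 18.2% and 20.4% of the genes it tested. These were Crat and Acsl5 lower and Cpt1c, Hsd17b4 and Ppard higher in the basal state, and Crat and Acsl5 lower and Cpt1a, Cpt1c and Acadsb higher after TNF-α. With the replicate number as a block, 13 members passed in the basal state and 11 after TNF-α, beside 31.6% and 29.5% of all genes. Those gained in both states were Cpt1a, Acadm, Acadsb, Etfa, Acat1, Hsd17b4 and Ppard as higher and Acsl3 as lower. Hadha and Acsl4 were gained as higher in the basal state alone. The labels do not say what the replicate number pairs.

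The counts depended on single libraries. Without replicate 2 of control KD, 14 members were higher and 3 lower in the basal state (beside 34.2% of all genes called) and 16 higher and 3 lower after TNF-α (beside 32.9%). Without replicate 1 of control KD, 1 was higher and 4 lower in each state (beside 14.3% and 18.3%), and without either GSTM1 KD library none passed in either state, while 1 and 3 genes of all tested passed in the basal state and 0 and 94 after TNF-α. In all of these fits 1 group had a single library, assumed to vary like the other.

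**Figure D3:**
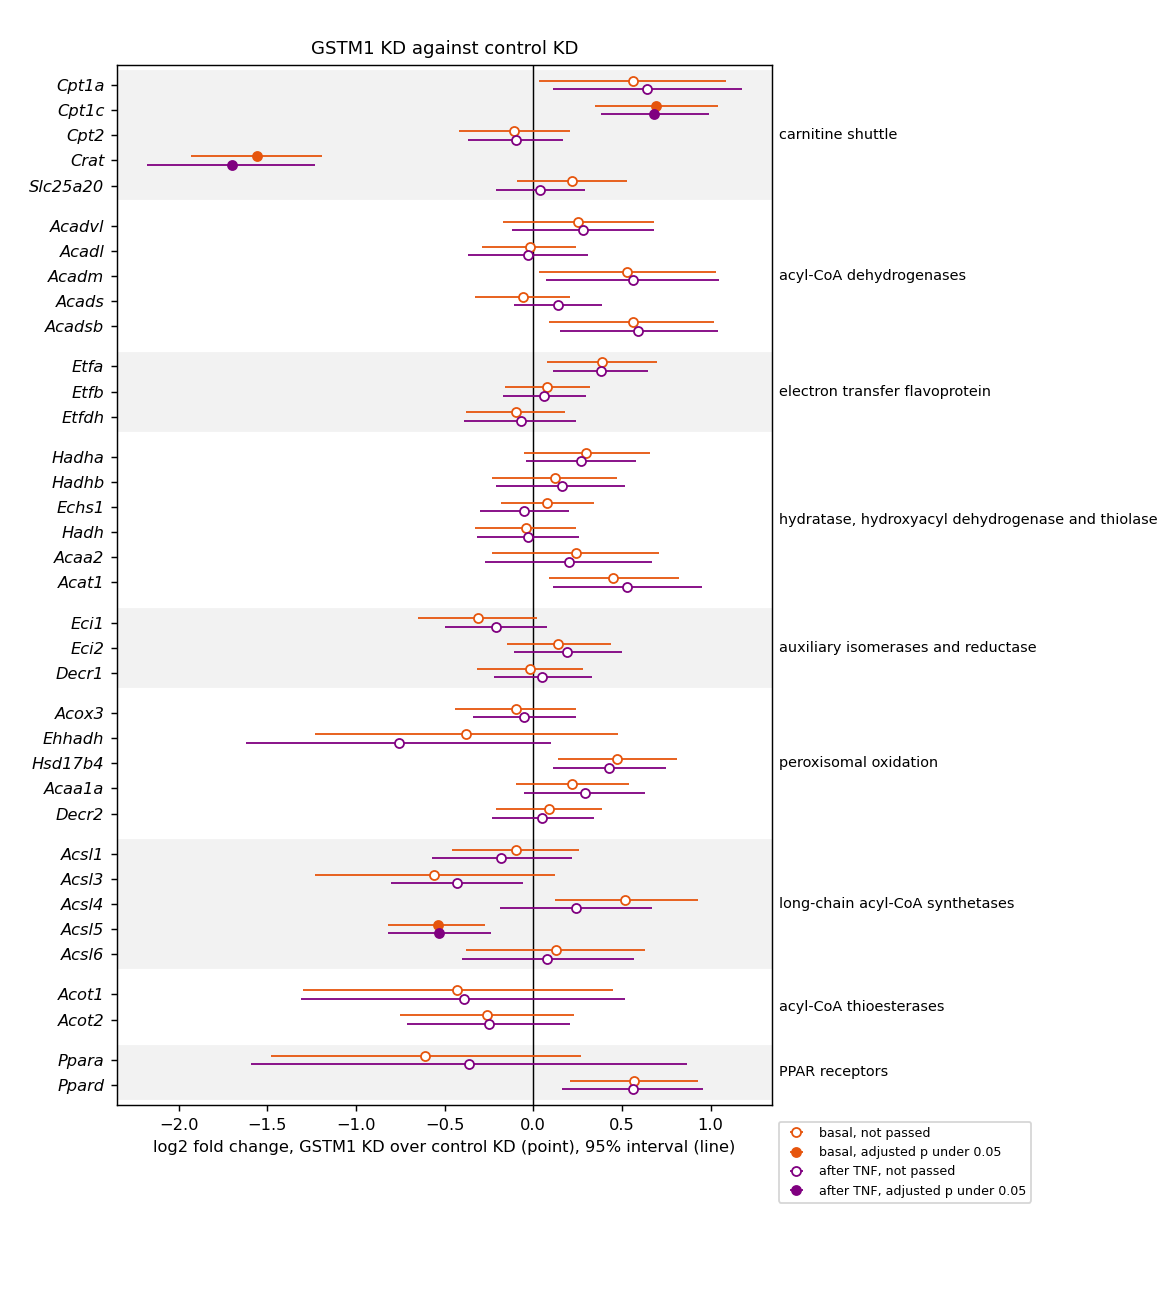
Log2 fold change of GSTM1 KD over control KD (x axis, points) with its 95% interval (lines) for each of the 36 genes by role, in the basal state (orange) and after TNF-α (purple). Filled points passed an adjusted p of 0.05, and only Cpt1c, Crat and Acsl5 are filled, in both states.

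The carnitine shuttle held the gene with the largest difference. Crat encodes carnitine acetyltransferase, which moves acetyl and other short acyl groups between carnitine and CoA and so buffers acetyl-CoA in mitochondria and peroxisomes. The gene lies on chr2:30400471-30415813 on the minus strand (GRCm38, GENCODE M21). It had 2586 and 2380 counts under control KD against 685 and 538 under GSTM1 KD in the basal state, and 1381 and 1445 against 498 and 393 after TNF-α. As CPM (counts scaled to library size with edgeR's TMM factors) these were 73.1 and 93.1 against 29.4 and 27.0, and 59.5 and 86.9 against 23.0 and 22.6. Every GSTM1 KD library was below the lowest control KD library, and the gap was larger than the spread between replicates. The log2 fold change was -1.56 (SE 0.147, 95% interval -1.93 to -1.19) in the basal state and -1.70 (SE 0.189, interval -2.18 to -1.23) after TNF-α, and the adjusted p-values were 0.0160 and 0.0119. In linear terms the level was 0.339 and 0.307 of that in control KD. Leaving out single libraries moved the log2 fold change between -1.73 and -1.38 and between -1.95 and -1.41. Without replicate 1 or 2 of GSTM1 KD the call was lost, with edgeR adjusted p-values of 0.0849 and 0.0999 in the basal state and 0.0719 and 0.072 after TNF-α. In the annotation an exon of Crat overlaps Dolpp1 on the opposite strand, and Dolpp1 differed by -0.37 and -0.46 without passing (adjusted p = 0.130 and 0.0963). Gm16323 also overlaps Crat on that strand, and no value was available for it.

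Cpt1c lies on chr7:44959372-44974851 on the minus strand. In the annotation an exon of Cpt1c overlaps 6530437J22Rik on the opposite strand, for which no value was available. Cpt1c had 3052 and 2734 counts under control KD against 3489 and 3250 under GSTM1 KD in the basal state, and 1964 and 1727 against 3269 and 2724 after TNF-α. Scaled to library size the values were 86.3 and 107 CPM against 150 and 163, and 84.6 and 104 CPM against 151 and 157. The 4 GSTM1 KD libraries, from 150 to 163 CPM, were above all control KD libraries. Cpt1c was 0.69 higher on the log2 scale (SE 0.138, 95% interval 0.35 to 1.04) in the basal state and 0.68 (SE 0.123, interval 0.38 to 0.99) after TNF-α, with adjusted p-values of 0.0389 and 0.0256. Leaving out single libraries moved the log2 fold change of Cpt1c between 0.54 and 0.85 in the basal state and between 0.55 and 0.84 after TNF-α. The call was lost without replicate 1 or 2 of GSTM1 KD.

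Cpt1a had 132 and 197 CPM under control KD against 220 and 264 under GSTM1 KD in the basal state, and 106 and 153 against 177 and 234 after TNF-α. It was higher in every GSTM1 KD library than in the control KD libraries of the same state, but the 2 control KD replicates were apart by 0.58 and 0.53 on the log2 scale. Its log2 fold changes of 0.56 (SE 0.214) and 0.64 (SE 0.215) did not pass (adjusted p = 0.146 and 0.0967). Without replicate 1 of control KD they were 0.29 and 0.40, and without replicate 2 they were 0.87 and 0.93. Slc25a20, the carnitine-acylcarnitine carrier of the inner membrane, was at 0.22 and 0.04 without passing. Cpt2, which turns the carnitine esters back to acyl-CoA inside the mitochondrion, overlapped between the knockdowns, with -0.11 (95% interval -0.42 to 0.21) and -0.10 (interval -0.37 to 0.17).

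RefSeq promoters are shown for the 3 genes Cpt1c, Cpt1a and Acsl5, since Cpt1c and Acsl5 passed the test in opposite directions and Cpt1a encodes the isozyme of Cpt1c. The table used held a promoter for 31 of the 36 genes, and none for Crat, Acaa2, Acat1, Decr1 and Hsd17b4. Each sequence runs 5′ to 3′ on the gene's strand from 250 bases before to 50 bases after the start site (GRCm38.p6), and capitals mark matches to GGGCGG (GC box) or CCAAT on either strand. The regions are chr7:44974802-44975101 on the minus strand, chr19:3323051-3323350 on the plus strand and chr19:55253119-55253418 on the plus strand.
Cpt1c: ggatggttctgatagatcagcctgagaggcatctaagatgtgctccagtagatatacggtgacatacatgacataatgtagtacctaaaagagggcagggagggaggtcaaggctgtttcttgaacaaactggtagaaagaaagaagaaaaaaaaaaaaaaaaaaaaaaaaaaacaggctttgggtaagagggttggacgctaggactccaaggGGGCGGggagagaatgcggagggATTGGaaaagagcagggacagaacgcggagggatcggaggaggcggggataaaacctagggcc
Cpt1a: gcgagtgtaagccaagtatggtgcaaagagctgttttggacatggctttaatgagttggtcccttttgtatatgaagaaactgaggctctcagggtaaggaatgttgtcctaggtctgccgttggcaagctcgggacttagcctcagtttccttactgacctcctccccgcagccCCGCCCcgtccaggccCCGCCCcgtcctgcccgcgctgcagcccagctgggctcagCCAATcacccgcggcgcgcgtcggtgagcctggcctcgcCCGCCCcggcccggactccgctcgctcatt
Acsl5: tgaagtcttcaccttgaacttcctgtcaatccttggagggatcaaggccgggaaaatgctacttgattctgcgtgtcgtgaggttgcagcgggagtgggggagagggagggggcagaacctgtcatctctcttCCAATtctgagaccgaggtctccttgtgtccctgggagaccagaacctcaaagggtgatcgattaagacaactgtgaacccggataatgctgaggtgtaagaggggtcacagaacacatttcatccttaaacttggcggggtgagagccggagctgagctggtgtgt

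The window of Cpt1a held 3 GC boxes and 1 CCAAT, that of Cpt1c 1 of each, and that of Acsl5 no GC box and 1 CCAAT. Their GC contents were 62.3%, 47.3% and 53.0%. Over the 34 promoters of the 31 genes, 82.4% held GGGCGG against 35.7% of the 32851 promoters in the table, and 50.0% held CCAAT against 37.4%. The median GC content was 60.7% against 52.7%. None held a PPAR element (AGGTCA repeated with 1 base between), the CRE TGACGTCA or TATAAA, which 0.04%, 1.79% and 13.6% of all promoters held. A loose form of the NF-κB site (GGG and CC with 5 bases of any kind between) was in 70.6% against 50.8%, and TCAAGGTCA, a site for estrogen-related receptors, was in 1 promoter, that of Acsl6, against 0.42%. All motifs were searched on both strands, and the NF-κB letters can overlap the GC box. A match describes the letters alone and no binding was measured.

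The acyl-CoA dehydrogenases perform the first step of each cycle on chains of different length. None of the 5 passed, with log2 fold changes from -0.06 to 0.56 in the basal state and from -0.03 to 0.59 after TNF-α. Acadm had 71.3 and 104 CPM under control KD against 115 and 138 under GSTM1 KD in the basal state, and 62.0 and 89.0 against 100 and 125 after TNF-α. Acadsb, which acts on short branched chains, had 68.3 and 95.8 CPM against 111 and 131, and 62.5 and 89.8 CPM against 111 and 122. For both genes the GSTM1 KD libraries were above the control KD libraries of the same state, and replicate 2 was above replicate 1 in each group. The log2 fold changes were 0.53 (SE 0.202) and 0.56 (SE 0.197) for Acadm and 0.56 (SE 0.187) and 0.59 (SE 0.179) for Acadsb. Their adjusted p-values were 0.144 and 0.108, and 0.111 and 0.0776. Leaving out single libraries moved Acadm between 0.28 and 0.82 and between 0.32 and 0.84, and Acadsb between 0.33 and 0.81 and between 0.35 and 0.87. Acadl was level, with -0.02 (95% interval -0.29 to 0.24) and -0.03 (interval -0.37 to 0.31), and Acads, the short-chain enzyme, was at -0.06 and 0.14. Acadvl was at 0.25 and 0.28 with intervals that included 0.

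None of the 3 genes of electron transfer passed. Etfa had 95.1 and 111 CPM under control KD against 129 and 142 under GSTM1 KD in the basal state, and 95.7 and 112 against 137 and 138 after TNF-α. It was 0.39 and 0.38 higher on the log2 scale (SE 0.125 and 0.110), with the 2 knockdowns apart in each state and adjusted p-values of 0.101 and 0.0686. Without single libraries it moved between 0.28 and 0.50 in each state. Its partner Etfb was at 0.08 (95% interval -0.16 to 0.32) and 0.06 (interval -0.17 to 0.30). Etfdh, the oxidoreductase that passes the electrons on to ubiquinone, overlapped between the knockdowns at -0.10 and -0.07.

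Of the 6 genes of the later steps, none passed and the values ran from -0.04 to 0.45 and from -0.05 to 0.53. Acat1, the acetoacetyl-CoA thiolase that also serves ketone body use, had 62.2 and 79.3 CPM under control KD against 92.3 and 101 under GSTM1 KD in the basal state, and 53.4 and 72.6 against 85.1 and 99.9 after TNF-α. The libraries of the 2 knockdowns did not overlap in either state. Acat1 was at 0.45 (SE 0.146) and 0.53 (SE 0.168), with adjusted p-values of 0.101 and 0.0851, and moved between 0.29 and 0.63 and between 0.33 and 0.77 without single libraries. Hadha and Hadhb, which lie head to head on chromosome 5 with 85 bases between the genes, were at 0.30 and 0.27 and at 0.12 and 0.16. Echs1, the short-chain enoyl-CoA hydratase, was at 0.08 and -0.05, Hadh at -0.04 and -0.03, and Acaa2, the mitochondrial thiolase, at 0.24 and 0.20. The auxiliary enzymes deal with double bonds of unsaturated chains. Of these Eci1, an enoyl-CoA isomerase, was lower in both GSTM1 KD libraries of each state at -0.31 and -0.21, Eci2, the other isomerase, was at 0.14 and 0.19 and the dienoyl-CoA reductase Decr1 at -0.02 and 0.05, none passing.

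Among peroxisomal genes, Hsd17b4 had 118 and 136 CPM under control KD against 162 and 190 under GSTM1 KD in the basal state, and 120 and 143 against 168 and 191 after TNF-α. The knockdowns were apart in each state. Its log2 fold changes were 0.47 (SE 0.135) and 0.43 (SE 0.127), and the adjusted p-values of 0.0814 and 0.0732 did not pass in edgeR, while DESeq2 gave 0.0489 and 0.0558. Without single libraries the log2 fold changes moved between 0.34 and 0.58 and between 0.31 and 0.56. Acaa1a was at 0.22 and 0.29, the reductase Decr2 at 0.09 and 0.05, and the acyl-CoA oxidase Acox3 at -0.10 and -0.05. Ehhadh was at -0.38 (95% interval -1.23 to 0.48) and -0.76 (interval -1.62 to 0.10), and both intervals included 0.

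Among the 5 synthetases 1 gene passed, and the values ran from -0.56 to 0.52 in the basal state. Acsl5, a synthetase of mitochondria and the endoplasmic reticulum, lies on chr19:55251938-55297720 on the plus strand. It had 1855 and 1256 counts under control KD against 835 and 675 under GSTM1 KD in the basal state, and 1564 and 1046 against 1063 and 741 after TNF-α. In CPM these were 52.5 and 49.1 against 35.8 and 33.8, and 67.4 and 62.9 against 49.1 and 42.6. The knockdowns did not overlap within a state, but the higher GSTM1 KD library after TNF-α equalled the lower control KD library in the basal state. Acsl5 was at -0.54 (SE 0.110, 95% interval -0.82 to -0.27) in the basal state and at -0.53 (SE 0.116, interval -0.82 to -0.24) after TNF-α, with adjusted p-values of 0.0401 and 0.0390. The call in the basal state was lost when counts were scaled by library size only (adjusted p = 0.0509) or by effective length (adjusted p = 0.0853). Leaving out single libraries moved the log2 fold change of Acsl5 between -0.6 and -0.5 in the basal state and between -0.63 and -0.43 after TNF-α. The call was lost in both states without replicate 1 or 2 of GSTM1 KD. Zdhhc6, which overlaps an exon of Acsl5 on the opposite strand, was at -0.19 and -0.07 without passing.

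The other 4 synthetases did not pass. Acsl4, which prefers arachidonic acid, had 33.2 and 38.9 CPM under control KD against 45.5 and 58.2 under GSTM1 KD in the basal state, and 37.3 and 51.0 against 49.0 and 57.0 after TNF-α. It was thus higher without overlap in the basal state (0.52, SE 0.162, adjusted p = 0.0945) and overlapped after TNF-α (0.24, SE 0.172, adjusted p = 0.359). Without single libraries these values moved between 0.33 and 0.69 and between 0.03 and 0.48, and the difference between the states did not pass (-0.26, 95% interval -0.88 to 0.37, edgeR adjusted p = 1). Acsl3, the synthetase linked to lipid droplets, had 57.3 and 97.9 CPM under control KD against 45.8 and 59.6 under GSTM1 KD in the basal state, and 51.9 and 68.6 against 44.5 and 46.6 after TNF-α. Its values of -0.56 (SE 0.272) and -0.43 (SE 0.149) stood beside a gap of 0.77 between the basal control KD replicates on the log2 scale, the widest of the family in that group, and moved between -0.90 and -0.13 and between -0.61 and -0.21 without single libraries. Acsl6 was at 0.13 and 0.08 and Acsl1 at -0.10 and -0.18.

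Acot1 and Acot2 are thioesterases that release free fatty acids from acyl-CoA in the cytosol and in mitochondria. They are close paralogs on chromosome 12, and reads could be split between them in different ways. Acot1 had 32.7 and 70.2 CPM under control KD against 34.3 and 42.0 under GSTM1 KD in the basal state, and 25.2 and 57.6 against 29.5 and 34.3 after TNF-α. Acot2 had 31.6 and 22.1 CPM against 23.3 and 21.7, and 28.2 and 20.8 against 20.1 and 22. In control KD replicate 2 was thus far above replicate 1 for Acot1 and below it for Acot2. Their sum was 64.2 and 92.3 CPM against 57.6 and 63.8 in the basal state, and 53.4 and 78.3 against 49.6 and 56.3 after TNF-α. The log2 fold changes of -0.43 (SE 0.352) and -0.39 (SE 0.368) for Acot1 and -0.26 and -0.25 for Acot2 did not pass, and those of Acot1 became 0.22 and 0.31 without replicate 2 of control KD.

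Ppard had 12.8 and 12.5 CPM under control KD against 19.2 and 18.4 under GSTM1 KD in the basal state, and 11 and 11.7 against 15.7 and 18.3 after TNF-α. The groups did not overlap in either state, and the replicates of the basal groups were within 1 CPM of each other. Ppard was 0.57 (SE 0.144) and 0.56 (SE 0.161) higher on the log2 scale, with adjusted p-values of 0.0632 and 0.0698. It passed in both states when all 8 libraries were fitted together. Ppara was at -0.61 (95% interval -1.48 to 0.27) and -0.36 (interval -1.59 to 0.87), which includes differences of more than 2-fold in its lower direction.

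**Figure D4:**
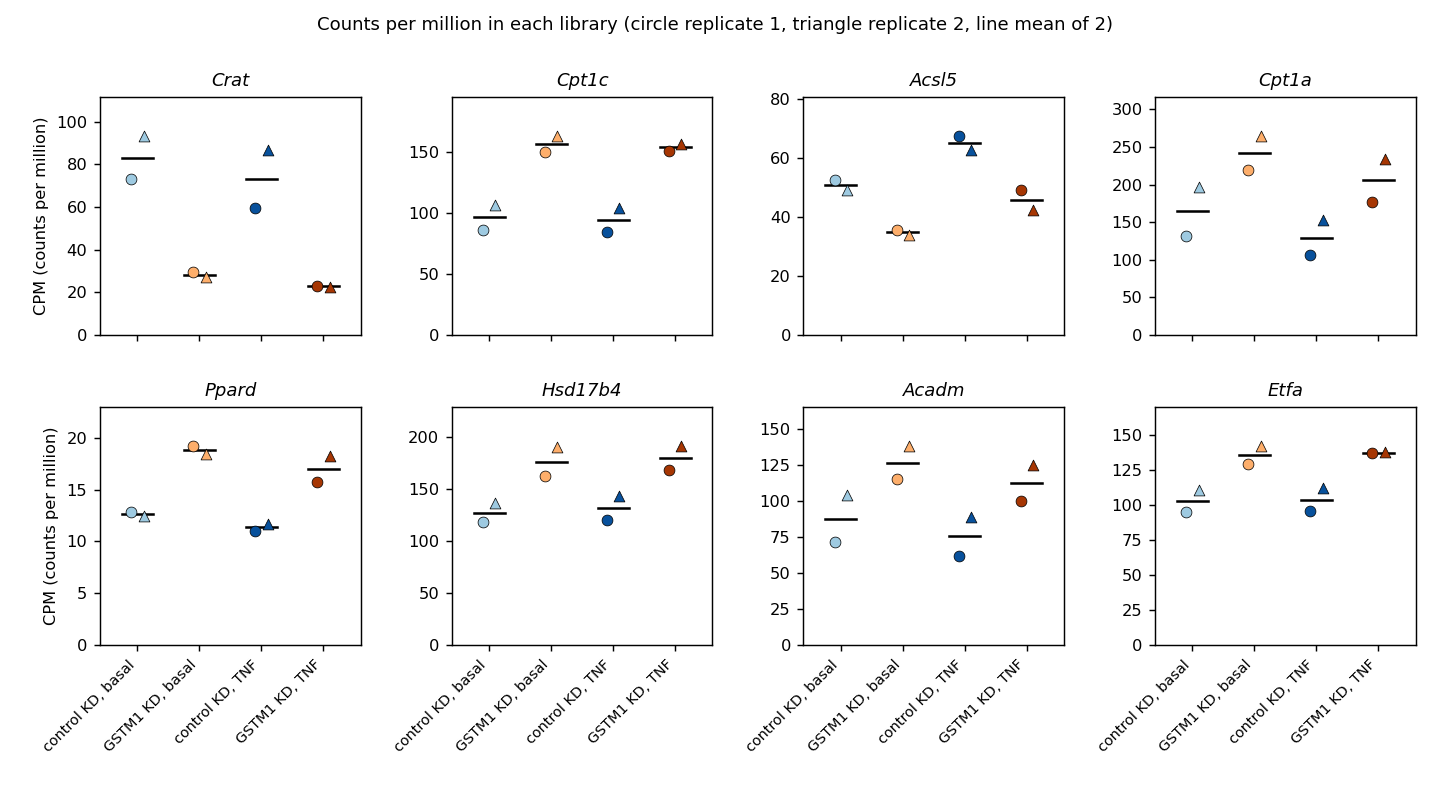
CPM (y axis, from 0) in each library for 8 of the genes, with circles for replicate 1, triangles for replicate 2 and lines for the mean of the 2. GSTM1 KD lies below control KD for Crat and Acsl5 and above it for the other 6 within each state, and Crat stands at 22.6 to 29.4 CPM in the GSTM1 KD libraries.

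Counting libraries without a test, 15 members were higher and 6 lower in both GSTM1 KD libraries than in both control KD libraries in the basal state, beside 32.3% and 31.2% of all genes tested. After TNF-α these were 16 and 6, beside 34.7% and 31.9%. In both states alike, 14 members were higher and 5 lower, beside 26.6% and 25.3% of the 14379 genes tested in both. Beside this stands the order of the libraries. The summed TPM of the 36 genes was 2210 and 2690 under control KD against 2750 and 2980 under GSTM1 KD in the basal state, and 2120 and 2570 against 2630 and 2840 after TNF-α. Within each state the lowest and the highest library in this sum were also the lowest and the highest in the summed astrocyte markers, while the other 2 changed places. Replicate 2 was above replicate 1 in CPM for 30, 27, 29 and 26 of the 36 genes in basal control KD, basal GSTM1 KD, control KD after TNF-α and GSTM1 KD after TNF-α. The same count was not made over all genes. Summed TPM of the astrocyte markers, with Gfap the largest part, was 1580 to 3790 under control KD against 3500 to 5720 under GSTM1 KD, with an overlap of libraries. No astrocyte marker passed as higher in either state, and S100b passed as lower in both. The fibroblast and mural sum, mostly Acta2, was 3060 to 3990 against 1580 to 2170, while Pdgfrb passed as higher after TNF-α. The oligodendrocyte lineage sum was 448 to 596 against 340 to 441, and Olig2 passed as lower in both states. The endothelial sum was 1.3 to 2.98 against 0.75 to 1.23, with no marker passing in edgeR. The part of these markers in the differences of the 36 genes was not tested. In such bulk samples fewer cells of a type and less RNA per cell cannot be told apart. Precision was enough to limit most members, since the 95% interval lay within 2-fold in either direction for 27 of 36 in the basal state and 29 after TNF-α, beside 61.6% and 61.3% of all genes.

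The response to TNF-α was then examined within each knockdown, with one model over all 8 libraries. None of the 36 genes passed in control KD or in GSTM1 KD with edgeR or DESeq2. Of the 15332 genes tested with edgeR, 2.63% passed in control KD (2.1% higher, 0.528% lower) and 2.65% in GSTM1 KD (2.35% higher, 0.294% lower), and with DESeq2 4.58% and 3.77% of its genes. At an unadjusted p under 0.05 there was 1 member in each, Acsl5, beside 12.5% and 10.9% of all genes. With the replicate number as a block, Acsl5 passed as higher in each knockdown, beside 6.44% and 5.27% of all genes called. The median log2 fold change of the members was -0.08 under control KD and -0.05 under GSTM1 KD, beside -0.02 and -0.01 over all genes, and the sizes were small, from -0.46 to 0.36 and from -0.44 to 0.40. Counting libraries without a test, 1 member was higher and 4 lower in both stimulated libraries of control KD, beside 16.2% and 18.3% of all genes, and 4 were higher and 10 lower in GSTM1 KD, beside 22.4% and 22.2%. The 95% interval lay within 2-fold for 34 and 33 of the 36, beside 70.9% and 71.7% of all genes. The sign of 28 members in control KD and 16 in GSTM1 KD changed without some library.

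Acsl5 went from 52.5 and 49.1 CPM to 67.4 and 62.9 in control KD and from 35.8 and 33.8 to 49.1 and 42.6 in GSTM1 KD. The stimulated libraries were above the unstimulated ones in each knockdown. The log2 fold changes were 0.36 (SE 0.101, adjusted p = 0.152) and 0.40 (SE 0.102, adjusted p = 0.131). Acaa1a went from 83.6 and 100 CPM to 92.4 and 118 in control KD and from 102 and 112 to 128 and 134 in GSTM1 KD, at 0.20 and 0.29 without passing. Cpt1a was at -0.35 (95% interval -0.95 to 0.25) and -0.24, Acsl3 at -0.36 and -0.21 and Crat at -0.18 and -0.31, with replicates of control KD overlapping between the states for each. By role, the 3 genes of electron transfer ran from -0.04 to 0.01 in control KD and from -0.01 to 0.03 in GSTM1 KD, the 5 acyl-CoA dehydrogenases from -0.21 to 0.00 and from -0.16 to 0.10, and the 6 genes of the later steps from -0.17 to 0.01 and from -0.10 to -0.02. Values were below 0 for 29 of the 36 genes in control KD and for 26 in GSTM1 KD. The median over all genes was itself -0.02 and -0.01, and the share of all genes below 0 was not counted.

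**Figure D5:**
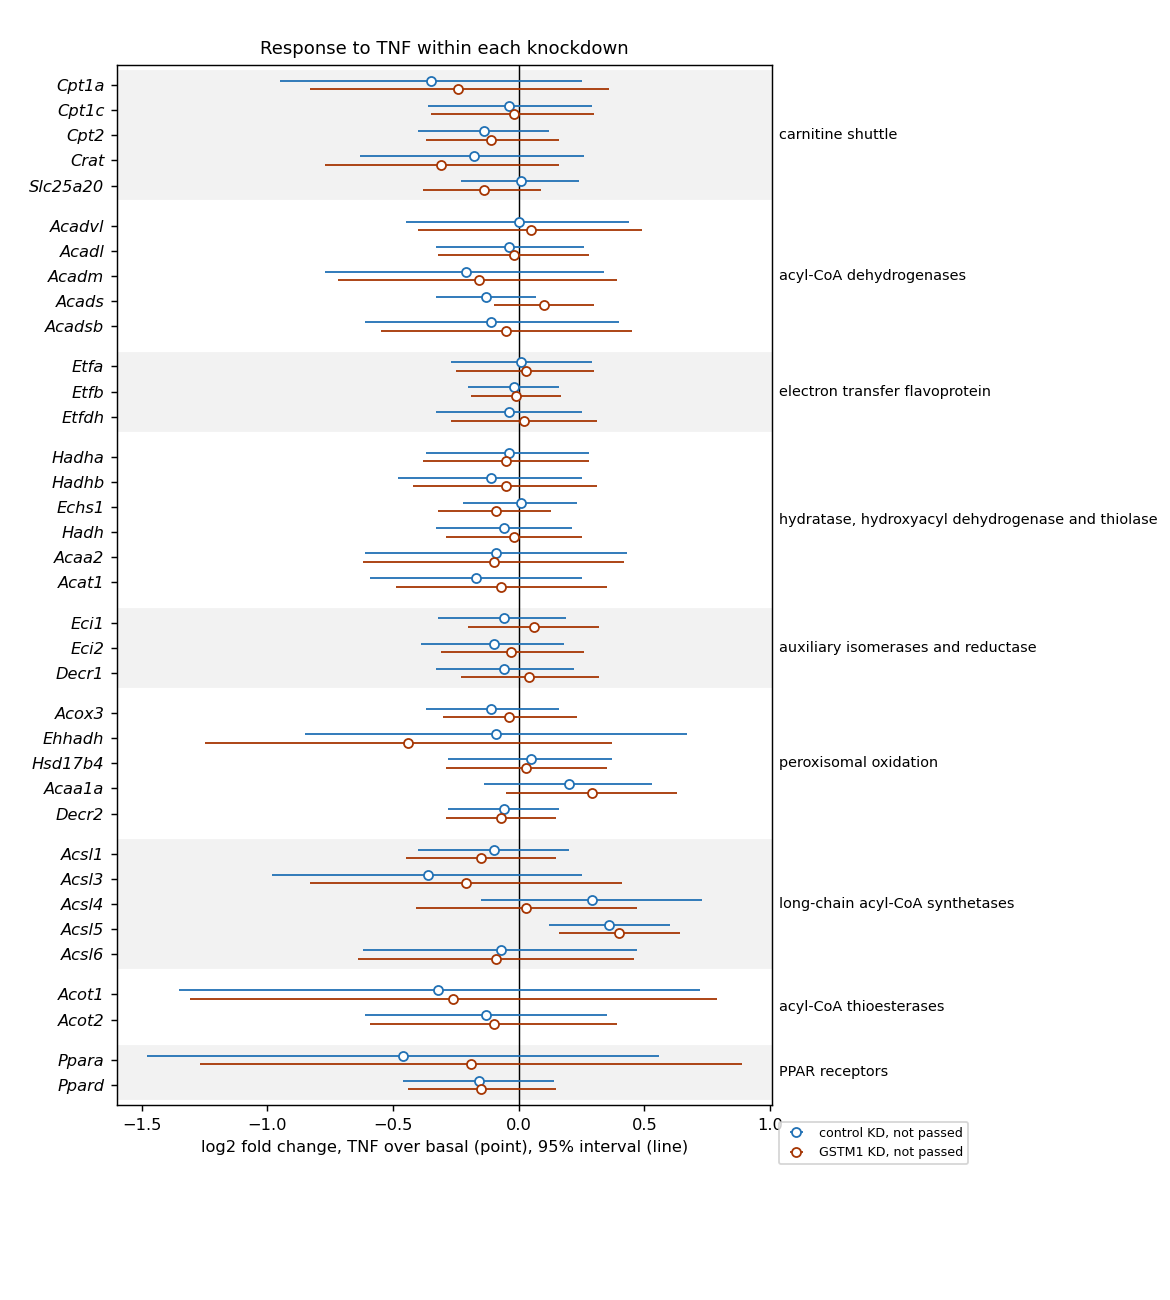
Log2 fold change of TNF-α over basal (x axis, points) with its 95% interval (lines) for each of the 36 genes by role, in control KD (blue) and GSTM1 KD (brown). No gene passed, and only the intervals of Acsl5 exclude 0 in either knockdown.

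Whether the response differed between the knockdowns was tested as the interaction of knockdown and stimulation. No member passed with edgeR or DESeq2, and none had an unadjusted p under 0.05. Over all genes, edgeR called 0 of 15332 (0%), 295 had an unadjusted p under 0.05 (1.92%) and DESeq2 called 27 (0.157%). The member values ran from -0.36 to 0.27 with a median of 0.04, beside 0.02 over all genes, and the 95% interval lay within 2-fold for 32 of 36, beside 64.5% of all genes. The sign of 31 members changed without some library. For the 3 genes that passed between the knockdowns the differences of response were -0.12 for Crat, 0.01 for Cpt1c and 0.04 for Acsl5.

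Other genes of the pathway, outside the 36, were taken from 4 lists. Of 34 further genes of oxidation and activation, 31 were tested and 1 passed as higher in each state between the knockdowns, beside 4.6% and 7.26% of all genes. This was Slc27a4, a fatty acid transport protein with synthetase activity, which had 42.8 and 42.7 CPM under control KD against 70.0 and 74.2 under GSTM1 KD in the basal state, and 39.0 and 40.1 against 62.6 and 71.5 after TNF-α. It was higher by 0.75 and 0.74 on the log2 scale (adjusted p = 0.0203 and 0.0178). Of 14 genes of fatty acid uptake, binding and lipid droplets, all tested, none passed in either state with edgeR, while 5 and 8 had an unadjusted p under 0.05, beside 31.6% and 36.2% of all genes, and DESeq2 called 4 and 3, beside 18.2% and 20.4%.

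Of 5 ketone body genes, 2 were higher and 1 lower in each state, beside 4.6% of all genes higher and 5.62% lower in the basal state and 7.26% and 8.92% after TNF-α. Slc16a1, the monocarboxylate carrier MCT1, was higher by 1.17 and 1.15 (adjusted p = 0.0441 and 0.0363), and Acat2, the cytosolic acetoacetyl-CoA thiolase that also feeds sterol synthesis, by 1.00 and 1.03 (adjusted p = 0.0303 and 0.0243). Bdh1, the hydroxybutyrate dehydrogenase, fell by 1.18 and 1.10 on the log2 scale in the same comparison (adjusted p = 0.0252 and 0.0405). The direction thus differed among genes of this list. Of 14 PPAR partners, coregulators and targets, 13 were tested, and 4 were higher and 1 lower in the basal state and 2 higher and 2 lower after TNF-α, beside the same shares of all genes. Ppargc1a, the coactivator PGC-1α, was higher by 0.75 and 0.89 on the log2 scale (adjusted p = 0.0361 and 0.0229). Angptl4, a PPAR target that inhibits lipoprotein lipase, had 3.45 and 4.38 CPM under control KD against 0.944 and 1.15 under GSTM1 KD in the basal state, and 7.24 and 7.28 against 2.49 and 1.44 after TNF-α. Its groups did not overlap in either state, with log2 fold changes of -1.90 and -1.89 (adjusted p = 0.0280 and 0.0236). Esrra, the estrogen-related receptor ERRα, was at 0.53 and 0.38 (adjusted p = 0.0352 and 0.0684), and Ucp2, a mitochondrial carrier, at -1.33 and -1.97 (adjusted p = 0.0539 and 0.0211), and the edgeR interaction did not pass for either (adjusted p = 1). For the response to TNF-α no gene of the 4 lists passed with edgeR in either knockdown. An unadjusted p under 0.05 was found for 8 genes for control KD and 6 for GSTM1 KD, beside 12.5% and 10.9% of all genes, while DESeq2 called 0 and 2, beside 4.58% and 3.77%.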

How the data were processed

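Gene expression came from RNA-seq of 8 libraries, 2 for each of 4 groups that the labels name. The authors made strand-specific libraries, mapped reads to GRCm38 (mm10) with STAR (version 2.5.4b) and quantified genes with RSEM (version 1.3.0), as their processing notes state. Whether counting used the strand is not given in the sources used here, so 12 members that share exon bases with a gene on the opposite strand are uncertain. The deposited expected counts are RSEM estimates, not normalized and not always whole. The deposited TPM values, scaled by the authors' RSEM run to one total, were used for levels and in no test. Effective lengths, in bases, were deposited per gene and library and used only as offsets in 1 alternative.

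Expected counts were rounded. edgeR (version 4.0.16, R version 4.3.3) gave TMM factors, filtering by filterByExpr and the quasi-likelihood F test on the whole table, with Benjamini-Hochberg adjustment over all genes tested and a threshold of 0.05. Knockdowns were compared on the 4 libraries of each state. TNF-α responses and their difference used all 8. DESeq2, which the study's methods name, was run here (version 1.42.0) as an alternative, with other scalings, filters, effective lengths, a replicate block, edgeR's newer quasi-likelihood method, other libraries in the fit and leaving out each library. With 2 libraries a group no exact rank or permutation test between 2 groups can pass 0.05. Replicates differed beyond sampling noise. Intervals are 95% and come from the model. The procedure was run on simulated counts drawn independently for each library. The simulation held no difference shared by libraries of one replicate number, so it does not show how the tests behave with one. Members and lists were chosen with earlier results of these data known. All 36 members are reported. Named are those with an adjusted p under 0.05 in any comparison, the 5 highest in TPM, those sensitive to 1 library and, of other lists, up to 4 called genes, apart from some that are not reported here. Positions and overlaps come from GENCODE M21, in which 31 of the 36 deposited identifiers have the same version, and promoters from RefSeq (GRCm38.p6). Figures used Python (version 3.11.15) and matplotlib (version 3.10.9).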

Additional observations from a re-analysis of the deposited data

Results flagged for a closer look

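Acads, the short-chain acyl-CoA dehydrogenase, had libraries that lay in opposite order after TNF-α in the 2 knockdowns, though the difference did not pass. It had 40.2 and 42.9 CPM in the basal state and 37.8 and 38.3 after TNF-α in control KD, and 40.5 and 39.2 CPM in the basal state and 42.0 and 43.3 after TNF-α in GSTM1 KD. The stimulated libraries were thus both below the unstimulated ones in control KD and both above them in GSTM1 KD. Taken singly, 18.3% of all genes tested were lower in this way in control KD and 22.4% were higher in GSTM1 KD. The share of all genes with both was not counted. The difference of the responses was 0.22 on the log2 scale (SE 0.120, 95% interval -0.06 to 0.51) and did not pass in edgeR's test of the interaction (unadjusted p = 0.104, adjusted p = 1).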

How the results depend on the processing

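In GSTM1 KD against control KD, members passing as higher (1 in each state) numbered 3 in the basal state and 3 after TNF-α with DESeq2, 7 and 8 without a filter on low counts (16% and 18.8% of all genes called), 10 and 8 with the replicate number as a block (31.6% and 29.5% of all genes), 2 and 2 with all 8 libraries in the fit (18% and 20.3%), and 4 after TNF-α with library size only (17.2%). Leaving out 1 library gave 0 to 14 in the basal state and 0 to 16 after TNF-α. Members passing as lower (2 in each state) numbered 1 in the basal state with library size only (11.1% of all genes called), 1 with effective length offsets (8.97%) and 4 without a filter, where 3 were lower after TNF-α, and 0 to 4 in either state without 1 library. DESeq2's size factors, at least 10 counts in every library and edgeR's newer method left these counts unchanged. The cause of these shifts was not tested. The replicate number pairs nothing that the labels name. The replicate differences of 2 groups correlated at 0.22 to 0.687 over 15332 genes. The replicate block added Cpt1a, Acadm, Acadsb, Etfa, Acat1, Hsd17b4 and Ppard as higher in both states, Hadha and Acsl4 as higher in the basal state, and Acsl3 as lower in both (3 lower in each). With it 1 member, Acsl5, passed as higher for the TNF-α response in control KD (6.44% of all genes called) and 1, again Acsl5, in GSTM1 KD (5.27%). The median log2 fold change of the members ranged without 1 library from 0.01 to 0.13 for GSTM1 KD in the basal state, from -0.01 to 0.23 after TNF-α, from -0.18 to 0.06 for the TNF-α response in control KD, from -0.09 to 0.01 for that in GSTM1 KD and from -0.09 to 0.16 for the difference of the responses. Acot1 in the basal state (-0.43) ranged from -0.88 to 0.22 without 1 library, and after TNF-α (-0.39) from -0.87 to 0.31, the highest in each state without replicate 2 of control KD. Of the 36 members, 9 in the basal state and 10 after TNF-α changed sign between the knockdowns without some library, none of them larger than 0.43 in size, and the 3 members that passed did not. The TNF-α response changed sign for 28 members under control KD (the largest at 0.46 in size), the response under GSTM1 KD for 16 (0.19) and the difference of the responses for 31 (0.36). Depth limits Ehhadh and Ppara, which had as few as 28 and 18 counts.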
